A study of Mus musculus with 12 samples.

Results

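Genes of microglia and innate immunity were followed in the brains of mice that lack the BK channel, the large-conductance calcium-activated potassium channel encoded by Kcnma1. The 10 genes (Il33, Nlrp10, Alpl, C3ar1, P2rx4, H2-Aa, Cd33, Gpnmb, Spp1 and Ucp2) were chosen by name, and they are 10 of the 1017 genes in the deposited tables of hippocampus and cortex. The hippocampus table lists 7 of them among its 652 genes, the cortex table lists 7 among 561, and 4 (Alpl, C3ar1, Gpnmb and Ucp2) are among the 196 genes in both. RNA was sequenced from whole hippocampus and whole cortex of adult C57BL/6 mice, 3 WT and 3 BK KO libraries per tissue and 12 in all. BK KO mice carry a germline frameshift deletion in exon 4 of Kcnma1 in every cell, and WT mice carry the intact gene. By the study's methods, cortex and hippocampus were taken from the same mice, 3 per genotype, and which libraries share a mouse was not stated. The methods name young adult males for behavior, recordings and other experiments, and give only adult age for the sequenced mice.

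Each table holds the genes that the study called different between the genotypes in that tissue, so a member that is not listed has no value here. Every count, interval and p-value below describes genes already selected on these libraries. The adjusted p-values were adjusted over the listed genes alone and are no measure over all genes. They were under 0.05 for 467 of 652 genes in hippocampus and 344 of 561 in cortex. Values are FPKM, a read measure corrected for how long the transcript is and how many fragments were sequenced, and the depth of the libraries is unknown. A gene was counted as past the threshold when its unadjusted limma p was under 0.05 and its log2 fold change, BK KO minus WT on log2(FPKM + 1), was beyond 0.58 in either direction. This scale understates the change of genes with low FPKM. "Rose" and "fell" are used for genes past the threshold.

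Microglia are the resident macrophages of the brain. At rest they express receptors with which they survey their surroundings, and in injury or degeneration they lower many of these and raise a set of lysosomal, lipid-handling and matrix genes that includes Gpnmb and Spp1. ATP released from cells acts on them through P2X and P2Y receptors and is broken down step by step to adenosine by ectoenzymes, among them tissue-nonspecific alkaline phosphatase (Alpl) and, for the step from AMP, CD73 (Nt5e). In bulk tissue, fewer cells of a type and less RNA per cell cannot be told apart.

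The targeted gene was checked first. Kcnma1 read 11.3, 10.6 and 9.67 FPKM in WT hippocampus against 2.54, 2.82 and 2.81 FPKM in BK KO hippocampus. In cortex it read 11.98, 9.82 and 11.8 FPKM in WT against 3.09, 2.97 and 2.76 FPKM in BK KO mice. The groups were far apart in both tissues, in the direction of the genotype labels.

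In hippocampus, Gpnmb and Spp1 rose and Alpl fell, so 3 of the 7 listed members were past the threshold, 2 of them higher and 1 lower. Among all 652 genes of hippocampus 42.6% were past it, 20.7% higher and 21.9% lower. In cortex, Gpnmb rose and Alpl, Il33 and H2-Aa fell, so 4 of the 7 listed members were past the threshold, 1 higher and 3 lower. Over the whole cortex table the share was 30.8%, with 10.9% higher and 20% lower. This balance depended on the scaling. Each library was also centred on the median of its listed genes with a mean of at least 1 FPKM (443 in hippocampus, 345 in cortex). The cortex members past the threshold were then Gpnmb and Ucp2, both higher. The share of higher genes among all those past it went from 35.3% to 82.5% in cortex and from 48.6% to 61.0% in hippocampus. The groups did not overlap in 6 of the 7 members in hippocampus, against 79.9% of the hippocampus table, and in 6 of 7 in cortex, against 80.6% of the cortex table. The median size of the log2 fold change was 0.55 over the 7 members and 0.54 over the table in hippocampus, and 0.65 and 0.47 in cortex.

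**Figure D1:**
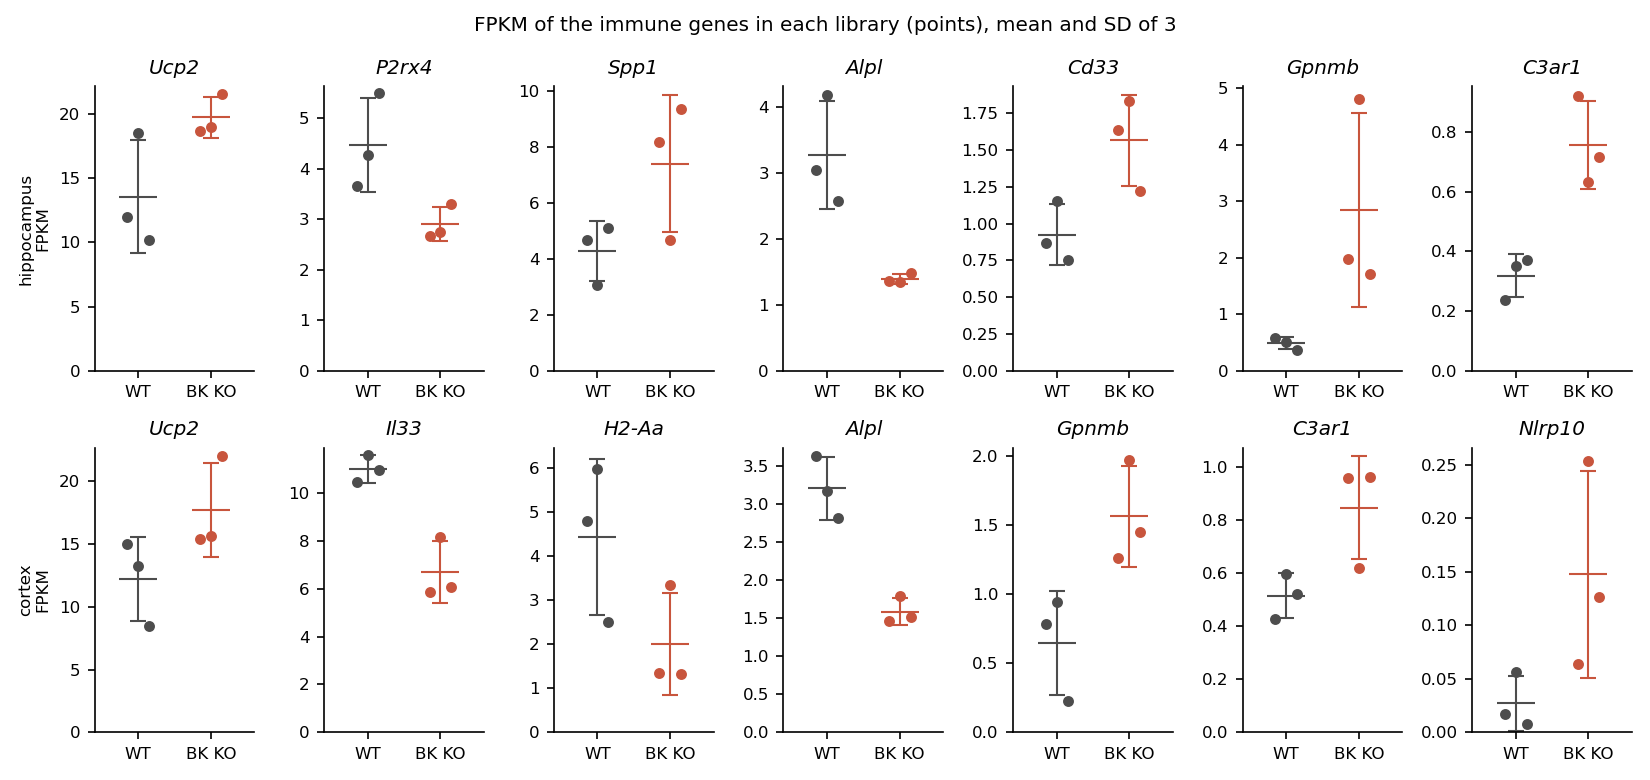
FPKM (vertical axes, each starting at 0) of the 7 listed members in hippocampus (upper row) and the 7 in cortex (lower row). Points are single libraries, and bars give the mean and SD of 3 WT or 3 BK KO libraries; the groups overlap for Spp1 in hippocampus and H2-Aa in cortex.

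Gpnmb encodes a transmembrane glycoprotein of phagocytes that is carried to lysosomes. In hippocampus it read 0.591, 0.505 and 0.374 FPKM in WT against 1.99, 4.82 and 1.72 FPKM in BK KO mice. Every BK KO library was above every WT library, and BK KO library 2 was the highest. The WT mean of 0.490 ± 0.109 FPKM (SD, n = 3) and the BK KO mean of 2.84 ± 1.72 FPKM (SD, n = 3) had a ratio of 5.79, which was 3.78 without BK KO library 2. The log2 fold change was 1.28 (95% interval 0.61 to 1.95; limma adjusted p = 0.0176), and it was 0.94 without that library. In cortex Gpnmb read 0.783, 0.942 and 0.225 FPKM in WT against 1.27, 1.98 and 1.45 FPKM in BK KO mice, with a ratio of the means of 2.41. Again the groups did not overlap, and WT library 3 was the lowest. The log2 fold change was 0.65 (95% interval 0.16 to 1.15; limma adjusted p = 0.0387). It was no longer past the threshold without WT library 3, where it was 0.45, or without BK KO library 2, where it was 0.54.

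Spp1 encodes osteopontin, a secreted phosphoprotein that binds integrins and CD44. It read 4.67, 3.06 and 5.08 FPKM in WT hippocampus against 8.15, 4.67 and 9.36 FPKM in BK KO hippocampus. BK KO library 2, the highest for Gpnmb, was the lowest of its group for Spp1 and lay among the WT libraries. The log2 fold change was 0.65 (95% interval 0.03 to 1.26; limma adjusted p = 0.0550). The call rested on single libraries. Without WT library 1 the unadjusted limma p was 0.0571, without WT library 2 it was 0.139, without BK KO library 1 it was 0.121 and without BK KO library 3 it was 0.140.

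Other genes of the list of disease-associated microglia, 23 genes in all, were listed in small number. In hippocampus 3 were listed (Spp1, Gpnmb and Timp2), all 3 past the threshold and higher, beside 20.7% of the hippocampus table. Spp1 and Gpnmb are members already counted above, and the groups overlapped for Spp1, so Timp2 alone is added here. Timp2, an inhibitor of metalloproteinases that many brain cells express, read 87.7, 80.7 and 67.7 FPKM in WT against 105, 222 and 154 FPKM in BK KO mice. In cortex 3 were listed, of which Gpnmb rose and Lpl fell. Lpl, the lipase that releases fatty acids from lipoproteins, read 4.84, 3.94 and 3.15 FPKM in WT against 1.59, 1.71 and 2.91 FPKM in BK KO cortex, the direction opposite to that of Gpnmb. With libraries centred its log2 fold change went from -0.71 to -0.44, not past the threshold. Ch25h, which makes 25-hydroxycholesterol, averaged 0.627 ± 0.308 FPKM (SD, n = 3) over the WT and 1.38 ± 0.575 FPKM (SD, n = 3) over the BK KO libraries of cortex, with overlapping groups.

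The markers of homeostatic microglia were checked beside these genes. Of 20 markers, 1 was listed in hippocampus and 2 in cortex, and P2ry12, Tmem119 and Cx3cr1 are in neither table. Fcrls, an Fc receptor-like molecule of resident microglia and the most abundant listed marker, read 10.8, 6.503 and 9.34 FPKM in WT hippocampus against 1.91, 5.48 and 3.16 FPKM in BK KO hippocampus. In cortex it read 10.6, 9.43 and 8.36 FPKM in WT against 2.26, 5.60 and 4.67 FPKM in BK KO mice. Fcrls fell in both tissues, with log2 fold changes of -1.18 and -1.07 (limma adjusted p = 0.0211 and 0.0269), and it stayed past the threshold without any single library. BK KO library 1 was the lowest and BK KO library 2 the highest of the BK KO libraries in both tissues. Itgam, the CD11b chain of complement receptor 3, averaged 5.49 ± 1.31 FPKM (SD, n = 3) over the WT and 3.64 ± 0.929 FPKM (SD, n = 3) over the BK KO libraries of cortex, with overlapping groups. The summed FPKM of the 2 listed markers in cortex was 17.1, 15.4 and 12.3 in WT and 5.79, 10.2 and 7.45 in BK KO mice. Their part in the values of the 10 genes was not tested.

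**Figure D2:**
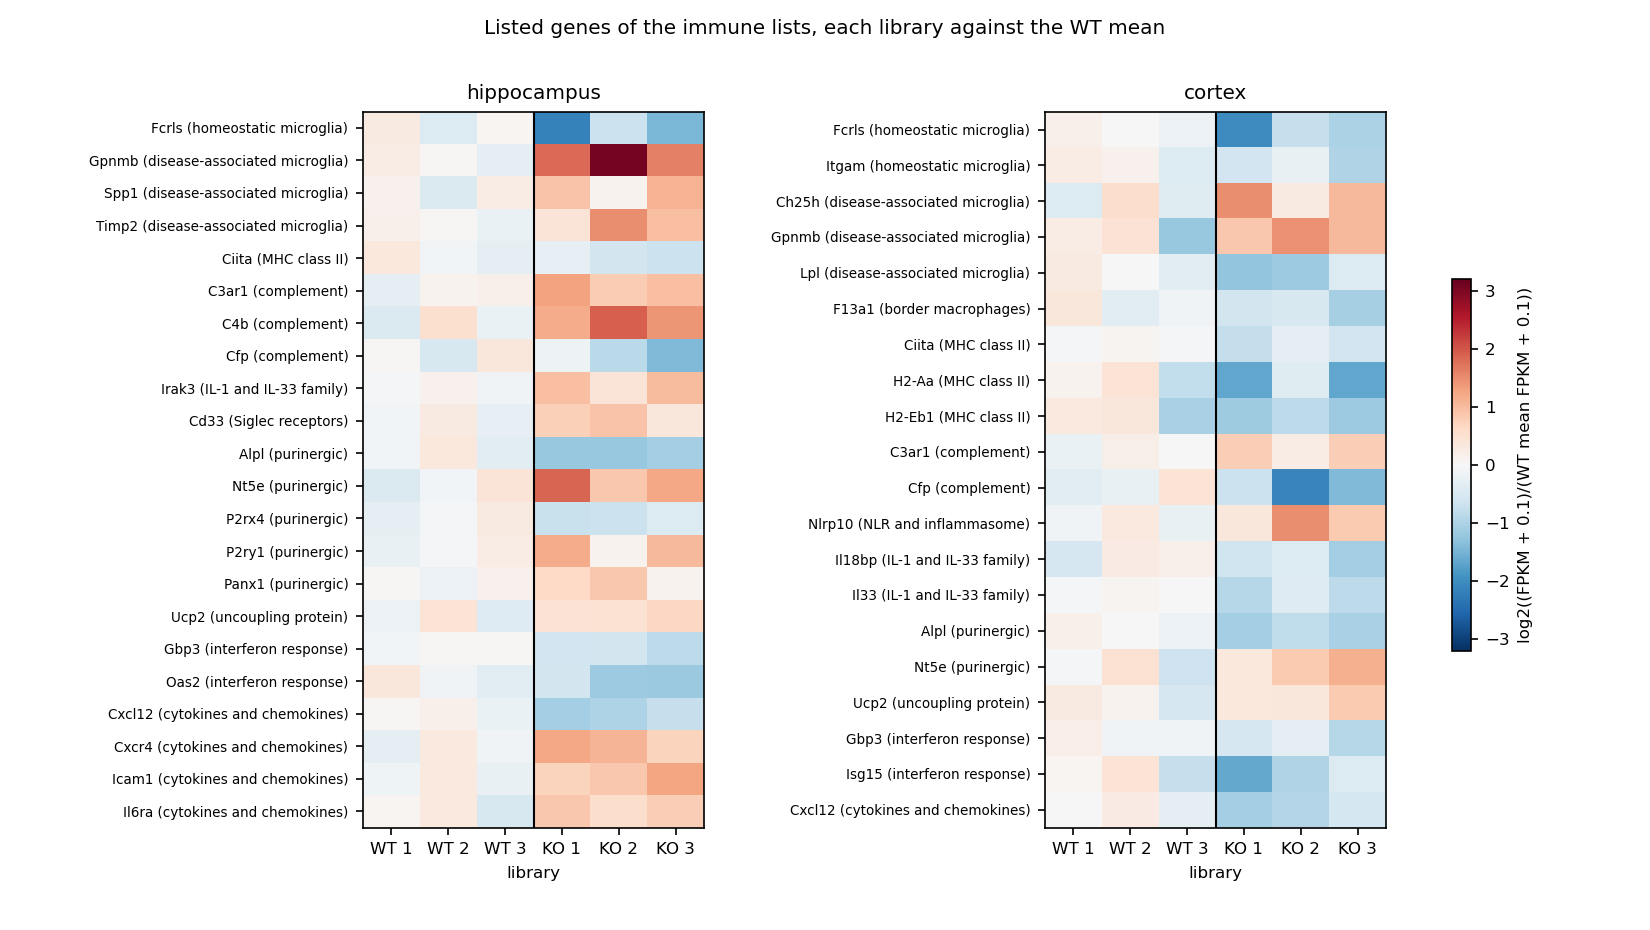
Genes of the immune lists that are listed in hippocampus (left) and cortex (right), 1 row per gene and 1 column per library. Color gives log2((FPKM + 0.1)/(WT mean FPKM + 0.1)); Fcrls is blue and Gpnmb red in every BK KO library of both tissues.

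C3ar1 and Cd33 encode receptors on the surface of microglia and other myeloid cells. C3ar1 binds the complement fragment C3a. It read 0.236, 0.351 and 0.370 FPKM in WT hippocampus against 0.920, 0.631 and 0.717 FPKM in BK KO hippocampus, and at 0.428, 0.599 and 0.521 FPKM in WT cortex against 0.958, 0.622 and 0.963 FPKM in BK KO cortex. The BK KO libraries were above the WT libraries in both tissues, in cortex by a narrow margin. The log2 fold changes of 0.41 and 0.28 did not reach 0.58. With a pseudocount of 0.1 they were 1.03 and 0.61, past the threshold in both tissues. Cd33, a sialic acid-binding receptor, read 0.865, 1.15 and 0.755 FPKM in WT hippocampus against 1.63, 1.83 and 1.22 FPKM in BK KO hippocampus. Its log2 fold change was 0.41 with a pseudocount of 1, short of the threshold, and 0.70, beyond it, at a pseudocount of 0.1. No other gene of the 11 on the Siglec list was in either table.

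Of the 24 complement genes, 3 were listed in each tissue. C4b, which forms part of the classical C3 convertase, rose in hippocampus, from 3.41, 6.75 and 4.05 FPKM in WT to 10.98, 18.2 and 12.9 FPKM in BK KO mice. Its log2 fold change of 1.40 (limma adjusted p = 0.0150) was past the threshold without any single library. Cfp, properdin, which stabilizes the alternative convertase, fell in cortex, from 3.28, 3.50 and 5.66 FPKM in WT to 2.53, 0.878 and 1.48 FPKM in BK KO mice. In hippocampus Cfp averaged 3.57 ± 1.08 FPKM (SD, n = 3) over the WT and 2.13 ± 0.970 FPKM (SD, n = 3) over the BK KO libraries, with overlapping groups. The listed complement genes thus did not share a direction.

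The promoter of C3ar1 is shown because C3ar1 and Gpnmb, both higher in the BK KO libraries, share a motif near the start of transcription. It is given for the 150 bases before the start site, chr6:122856158-122856307 on the minus strand of GRCm38.p6 (RefSeq), with the letters TGACTCA of an AP-1 element in capitals.
C3ar1: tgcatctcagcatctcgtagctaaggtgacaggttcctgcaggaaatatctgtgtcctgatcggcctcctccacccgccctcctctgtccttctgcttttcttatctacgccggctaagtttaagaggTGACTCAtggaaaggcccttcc
Counted from the start site, the motif begins at position -22 in C3ar1 and at position 9, in the transcribed part, in Gpnmb. Promoters of 9 of the 10 genes were matched, each from 250 bases before to 50 after a start site, and 5.2% of all 32851 promoters hold the motif on either strand. Spp1, Cd33 and Ucp2, whose means were also higher in BK KO mice, did not hold it in this window. The match is a description of the letters and shows no binding.

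Alpl and P2rx4 belong to extracellular ATP signaling. Alpl encodes tissue-nonspecific alkaline phosphatase, an ectoenzyme found in brain on endothelium as well as on neural cells. It read 3.05, 4.17 and 2.58 FPKM in WT hippocampus against 1.36, 1.35 and 1.48 FPKM in BK KO hippocampus. In cortex it read 3.63, 3.18 and 2.81 FPKM in WT against 1.46, 1.79 and 1.51 FPKM in BK KO mice. The BK KO libraries were close together and below every WT library in both tissues. Alpl fell, with ratios of the WT to the BK KO mean of 2.34 in hippocampus and 2.02 in cortex and log2 fold changes of -0.82 and -0.70 (limma adjusted p = 0.0150 and 0.0217). The call held in each tissue without any single library. In cortex it was lost with libraries centred, where the log2 fold change was -0.43. P2rx4, an ATP-gated cation channel of microglia and neurons, read 3.65, 4.27 and 5.49 FPKM in WT hippocampus against 2.67, 2.75 and 3.30 FPKM in BK KO hippocampus. The groups did not overlap, and its log2 fold change of -0.48 was not past the threshold. Without WT library 1 it was -0.59, which is past it, and the other 5 fits with a library left out were not, with -0.35 without WT library 3.

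The RT-PCR primers that the study lists for Alpl and Nlrp10 locate the part of each transcript that was assayed outside the sequencing.
Alpl forward: CGCCATGACATCCCAGAAAG
Alpl reverse: ACCGAATGTGAAAACGTGGG
Nlrp10 forward: GGCTGAAGAAGAAGATGGCG
Nlrp10 reverse: GCTGTCTCCATTGCCATCAG
Matched to GENCODE M21 transcripts (GRCm38), the Alpl product covers 70 bases of coding sequence in exon 10, at chr4:137743666-137743735 on the minus strand. The Nlrp10 product covers 116 bases of coding sequence in exon 3, at chr7:108925114-108925229 on the minus strand.

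Of the 24 purinergic receptors and ectonucleotidases, 5 were listed in hippocampus, 1 past the threshold and higher and 1 past it and lower. The shares of the hippocampus table were 20.7% and 21.9%. In cortex 2 were listed, 0 past it and higher and 1 past it and lower (Alpl), beside 10.9% and 20% of the cortex table. Nt5e, which makes adenosine from AMP, rose in hippocampus from 0.862, 1.14 and 1.66 FPKM in WT to 4.69, 2.28 and 3.02 FPKM in BK KO mice, the opposite direction to Alpl. In cortex Nt5e averaged 1.17 ± 0.488 FPKM (SD, n = 3) over the WT and 2.12 ± 0.593 FPKM (SD, n = 3) over the BK KO libraries, with overlapping groups. P2ry1 and Panx1 were listed in hippocampus with overlapping groups and log2 fold changes of 0.45 and 0.49.

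Il33 encodes a nuclear cytokine of the IL-1 family that glia release on damage and that acts on microglia through the receptor ST2. It is listed in cortex, at 10.4, 11.6 and 10.9 FPKM in WT against 5.84, 8.17 and 6.06 FPKM in BK KO mice. The WT libraries were close together and above every BK KO library. Il33 fell with a log2 fold change of -0.65 (95% interval -0.97 to -0.33; limma adjusted p = 0.0217), and without BK KO library 1 it was -0.57, just short of the threshold. With libraries centred it was -0.39, not past it. Of the 19 genes of the IL-1 and IL-33 list, 2 were listed in cortex and 1 in hippocampus. Il18bp, a decoy that binds IL-18, averaged 0.735 ± 0.228 FPKM (SD, n = 3) over the WT and 0.414 ± 0.117 FPKM (SD, n = 3) over the BK KO libraries of cortex, with overlapping groups. Irak3, an inhibitory kinase-like protein, averaged 0.188 ± 0.0271 FPKM (SD, n = 3) over the WT and 0.407 ± 0.109 FPKM (SD, n = 3) over the BK KO libraries of hippocampus and was not past the threshold.

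Nlrp10 is a member of the NOD-like receptor family without the leucine-rich repeats. Its values in cortex were very low, 0.0170, 0.0566 and 0.00774 FPKM in WT and 0.0637, 0.253 and 0.126 FPKM in BK KO mice. The authors' base mean, a normalized read count, was 3.30 in WT and 17.2 in BK KO cortex, so few reads stand behind these values. The log2 fold change was 0.16 with a pseudocount of 1 and 0.91 with a pseudocount of 0.1, past the threshold on the second scale and not on the first. Without BK KO library 2, the highest, the first of these was 0.09. None of the other genes of the list of 21 NOD-like receptors and inflammasome genes was in either table.

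H2-Aa encodes the alpha chain of the MHC class II molecule I-A, which presents peptides to CD4+ T cells. In cortex it read 4.80, 5.99 and 2.51 FPKM in WT against 1.34, 3.35 and 1.33 FPKM in BK KO mice. WT library 3 lay below BK KO library 2, so the groups overlapped. H2-Aa fell with a log2 fold change of -0.86 (95% interval -1.71 to -0.01; limma adjusted p = 0.0657). The unadjusted limma p was 0.122 without WT library 1, 0.147 without WT library 2, 0.128 without BK KO library 1 and 0.132 without BK KO library 3, none of them past the threshold. With libraries centred the log2 fold change was -0.59 with an unadjusted limma p of 0.101. Of the 10 class II genes, 3 were listed in cortex and 1 in hippocampus. H2-Eb1, the I-E beta chain, read 3.37, 3.49 and 1.27 FPKM in WT against 1.18, 1.48 and 1.16 FPKM in BK KO cortex, low in WT library 3 as H2-Aa was. Ciita, the transcriptional coactivator of class II genes, read 0.0732, 0.0902 and 0.0711 FPKM in WT against 0.00560, 0.0430 and 0.0172 FPKM in BK KO cortex. Neither H2-Eb1 nor Ciita was past the threshold, and the log2 fold change of Ciita of -0.08 turned to 0.19 when libraries were centred.

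The promoters of the pair of class II chain genes are shown because both had lower means in BK KO cortex. Class II promoters are known to carry an X box region and, nearer the start site, a Y box. The 150 bases before each start site are given, with GATTGG (the Y box core, on either strand) and TGACGTCA (a cyclic AMP element) in capitals, from chr17:34287824-34287973 on the minus strand for H2-Aa and chr17:34305717-34305866 on the plus strand for H2-Eb1 (GRCm38.p6, RefSeq).
H2-Aa: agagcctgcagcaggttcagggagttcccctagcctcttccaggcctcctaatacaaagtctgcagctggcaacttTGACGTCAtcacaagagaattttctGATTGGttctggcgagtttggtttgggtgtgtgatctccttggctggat
H2-Eb1: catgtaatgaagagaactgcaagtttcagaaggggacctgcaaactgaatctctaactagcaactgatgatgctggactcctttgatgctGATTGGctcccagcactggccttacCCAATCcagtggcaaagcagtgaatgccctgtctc
GATTGG begins at position -49 of H2-Aa and at position -60 of H2-Eb1, where a further copy lies on the opposite strand, and 16.1% of all promoters hold it. TGACGTCA begins at position -74 of H2-Aa and is held by 1.79% of all promoters. Among the 10 genes GATTGG was also found in Spp1, which alone held GAGGAAGT (PU.1 type, 3.2% of promoters), and CACGTG (E box, 7.15%) was found in none of the 9 with a promoter. No entry was matched for Nlrp10.

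Ucp2 encodes a mitochondrial carrier of the uncoupling protein family that is abundant in microglia. It had the highest mean FPKM of the listed members in both genotypes of both tissues, and in WT cortex it overlapped Il33. In hippocampus it read 11.9, 18.5 and 10.2 FPKM in WT against 18.7, 18.9 and 21.5 FPKM in BK KO mice, and in cortex at 14.9, 13.2 and 8.46 FPKM in WT against 15.4, 15.6 and 21.98 FPKM in BK KO mice. The groups did not overlap, but WT library 2 of hippocampus and WT library 1 of cortex lay just under the lowest BK KO libraries. The log2 fold changes were 0.55 and 0.51, not past the threshold. Without WT library 2 the value in hippocampus was 0.78, and without WT library 1 that in cortex was 0.67, both past it. Each of the other 5 fits per tissue with a library left out was not past it, with 0.38 in hippocampus and 0.29 in cortex without WT library 3. With libraries centred the values were 0.62 and 0.78, also past it. No other uncoupling protein of the list of 5 was in either table.

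**Figure D3:**
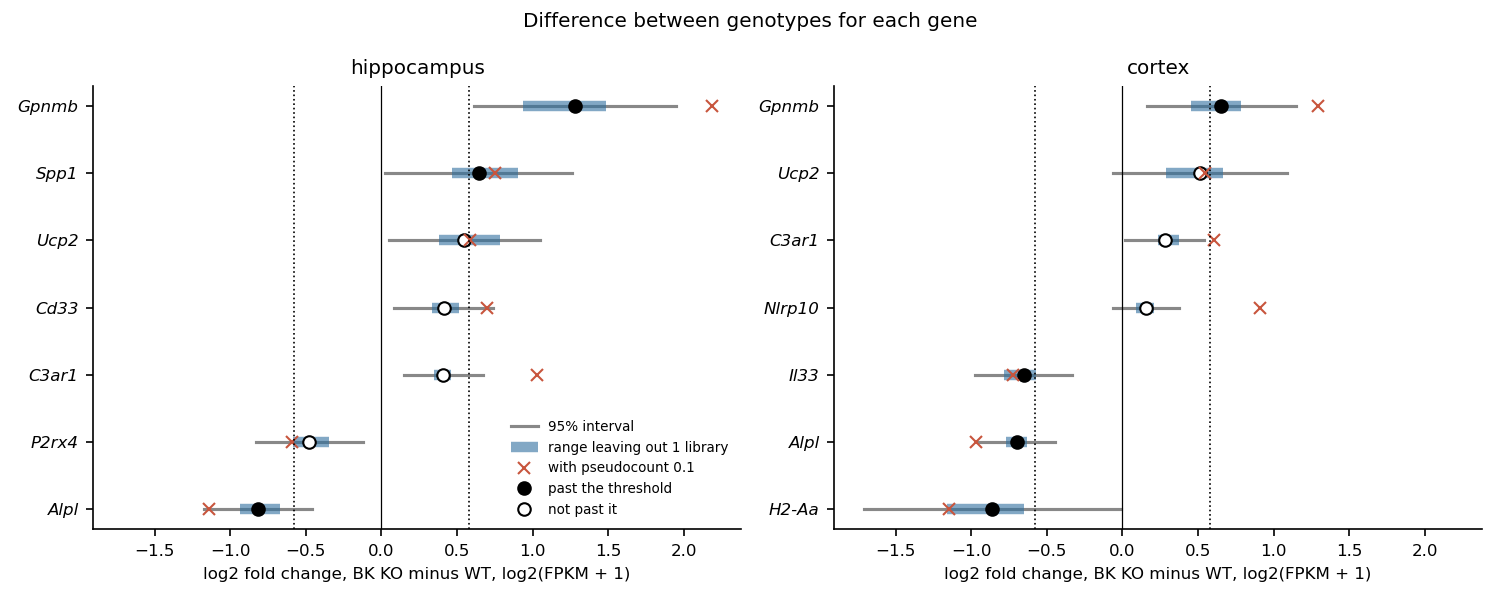
Log2 fold change (BK KO minus WT, horizontal axis) of each listed member on log2(FPKM + 1). Circles are filled for members past the threshold (dotted lines at -0.58 and 0.58), grey lines are 95% intervals, blue bars span the fits that left out 1 library and crosses use a pseudocount of 0.1, which moves Gpnmb in both tissues, C3ar1 in hippocampus and Nlrp10 most.

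The levels of the listed members had a wide range. In WT hippocampus the order was Ucp2, P2rx4, Spp1, Alpl, Cd33, Gpnmb and C3ar1, from a mean of 13.5 FPKM to 0.319 FPKM, and P2rx4 overlapped Spp1 and Spp1 overlapped Alpl. In BK KO hippocampus Gpnmb, at 2.84 FPKM, stood between P2rx4 and Cd33 and overlapped both, and Alpl stood below Cd33 and overlapped it. In WT cortex the order was Ucp2, Il33, H2-Aa, Alpl, Gpnmb, C3ar1 and Nlrp10, from 12.2 FPKM to 0.0271 FPKM, with overlap between Ucp2 and Il33, H2-Aa and Alpl, and Gpnmb and C3ar1. The order of the means was the same in BK KO cortex, with overlap between H2-Aa and Alpl and between Alpl and Gpnmb.

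For the 4 genes listed in both tissues the difference between the tissues was tested. The log2 fold change in cortex minus that in hippocampus was -0.63 for Gpnmb (95% interval -1.44 to 0.19), 0.12 for Alpl (-0.30 to 0.53), -0.13 for C3ar1 (-0.47 to 0.21) and -0.04 for Ucp2 (-0.77 to 0.70). None had an unadjusted limma p under 0.05, and of the 196 genes tested 0 had one, which is 0%. This fit takes the 12 libraries as independent, although the tissues come from the same mice. With same-numbered libraries of a genotype as a block, 1 of the 196 genes had an unadjusted limma p under 0.05, and that of Gpnmb was 0.0523 against 0.120 without the block. Without BK KO hippocampus library 3 the unadjusted limma p of Gpnmb was 0.0446 and without WT cortex library 3 it was 0.0473. Without BK KO hippocampus library 2 the difference for Gpnmb shrank to -0.28, with an unadjusted limma p of 0.300. Being listed in both tables favors equal changes, and these intervals leave room for unequal changes.

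Over all 15 immune lists, 251 genes in all, 22 were listed in hippocampus and 20 in cortex, members included. In hippocampus 14 were higher in BK KO mice and 8 lower, with 5 and 3 past the threshold (36.4% of them, and 42.6% of the table) and a median log2 fold change of 0.43, where the table as a whole had -0.27. In cortex 6 were higher and 14 lower, with 1 and 7 past the threshold (40%, and 30.8% of the table) and a median of -0.40, where the table had -0.33. With libraries centred, 8 higher and 3 lower genes were past the threshold in hippocampus, and 4 higher and 2 lower in cortex, so the balance of calls in cortex turned. Cxcl12, a chemokine made by endothelium and other stromal cells, fell in both tissues, from 10.1, 10.99 and 8.50 FPKM to 4.56, 4.89 and 5.92 FPKM in hippocampus and from 10.6, 12.6 and 8.41 FPKM to 4.91, 5.43 and 7.05 FPKM in cortex, where with libraries centred the log2 fold change went from -0.76 to -0.49 and the call was lost. None of the genes on the lists of MHC class I, Toll-like receptors, and phagocytosis and Fc receptors was in either table. Class I genes outside that list, named after their values were seen, are in the cortex table: H2-Q6 and H2-T24 had log2 fold changes of -0.65 and -0.35 and were not past the threshold, and H2-M10.2 is listed at 0 FPKM in every library although the authors' base mean was 14.3 in WT and 2.93 in BK KO cortex, so this 0 does not mean that it had no reads. Of the 25 interferon response genes 2 were listed per tissue, all lower in BK KO mice and none past the threshold.

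By the GO terms in the deposited tables, 26 listed genes of hippocampus and 27 of cortex carried immune response, innate immune response, inflammatory response, immune system process or phagocytosis. In hippocampus 11 were higher and 15 lower, with 6 and 5 past the threshold, which is 42.3% of them beside 42.6% of the table. In cortex 7 were higher and 20 lower, with 4 and 7 past the threshold, which is 40.7% beside 30.8%. With libraries centred these were 7 and 4 in hippocampus and 5 and 3 in cortex. These terms name 1 member in hippocampus (C3ar1) and 3 in cortex (C3ar1, H2-Aa and Nlrp10).

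For the members past the threshold, listed genes with the most similar pattern over the 6 libraries were found by Pearson's r of log2(FPKM + 1), as a description that includes the difference between the genotypes. For Gpnmb they were Etv3, Hpgd and Sytl5 in hippocampus (r of 0.99, 0.99 and 0.99) and Cyp1b1, Smyd4 and Tuba8 in cortex (0.99, 0.99 and 0.97). For Alpl they were Pltp, Gm11744 and Thpo in hippocampus (0.99 each) and Ugt8a and Xlr4b in cortex (0.99 each), of which Ugt8a is a gene of oligodendrocytes. For Spp1 in hippocampus they were Cry1, Pdzd2 and Dsg1c (0.99, 0.94 and 0.93). For Il33 in cortex they were Ciita, Etv4 and Gm5141 (0.99, 0.99 and 0.98), and for H2-Aa they were Slc2a5, Itm2a and Slc38a5 (0.99, 0.97 and 0.96). Slc2a5, a fructose transporter that is a marker of microglia in brain, read 1.80, 2.14 and 1.21 FPKM in WT against 0.794, 1.37 and 0.938 FPKM in BK KO cortex.

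Markers of other cells are listed in the same tables. Of 3 endothelial markers per tissue, 2 were past the threshold and lower in hippocampus and 0 in cortex, where Emcn had overlapping groups. Of 5 mural cell markers in hippocampus 1 was past it and lower. Of oligodendrocyte markers, 2 of 3 in cortex and 2 of 2 in hippocampus were past it and lower, as were 8 of 12 skeletal muscle markers in cortex. Among all listed genes the share past it and lower was 21.9% in hippocampus and 20% in cortex. Endothelial markers, 3 of 12 listed per tissue and Tie1 the most abundant, were lower in BK KO mice, with a summed FPKM of 10.4, 10.6 and 7.67 in WT and 5.83, 5.62 and 4.73 in BK KO hippocampus, and of 9.05, 10.3 and 7.41 in WT and 5.71, 4.89 and 5.85 in BK KO cortex. Oligodendrocyte markers, 3 of 11 listed in cortex and Opalin the most abundant, summed to 31.0, 36.6 and 27.0 FPKM in WT and 14.4, 20.4 and 15.03 FPKM in BK KO cortex. The 2 listed in hippocampus summed to 15.6, 30.6 and 30.6 FPKM in WT and 12.4, 16.1 and 10.1 FPKM in BK KO hippocampus, where the groups overlapped. Mural cell markers, 5 of 9 listed in hippocampus, summed to 64.6, 60.7 and 62.2 FPKM in WT and 45.6, 37.1 and 39.4 FPKM in BK KO hippocampus. Gad2, of inhibitory neurons, rose in both tissues. In cortex its log2 fold change of 0.69 was no longer past the threshold without BK KO library 2, where it was 0.45, or without WT library 3, where the unadjusted limma p was 0.0571. Gfap, of astrocytes, rose in cortex with a call that held in 2 of 6 fits with a library left out. It was lost without WT library 1, WT library 3, BK KO library 1 or BK KO library 2, with unadjusted limma p values of 0.0501, 0.0690, 0.0910 and 0.0935. Skeletal muscle markers, 12 of 15 listed in cortex, were all lower in BK KO mice, with Acta1 the most abundant and sums of 89.97, 33.3 and 27.5 FPKM in WT and 9.78, 8.38 and 7.51 FPKM in BK KO cortex. WT cortex library 1 was the highest for muscle, and without it Il33, Alpl and Gpnmb were past the threshold, as was Ucp2, and H2-Aa was not. The muscle sums of WT libraries 2 and 3 were also above every BK KO library, so that fit does not remove the muscle difference. The hemoglobin gene Hba-a2, 1 of 8 erythrocyte markers, read 32.8, 17.6 and 18.1 FPKM in WT against 10.1, 5.19 and 16.3 FPKM in BK KO cortex. Of oligodendrocyte precursors in hippocampus, Lhfpl3 rose with a log2 fold change of 0.71, and Olig2 was lower at -0.56, not past the threshold. F13a1 of border macrophages was lower in cortex at -0.32. Of meningeal fibroblasts, Dpp4 was lower in hippocampus at -0.21 and Slc22a6 in cortex at -0.48. F13a1, Dpp4 and Slc22a6 were not past the threshold. The lists of choroid plexus, T and NK cells, B cells, and neutrophils and monocytes had no listed gene. The part of all these cells in the values above was not tested.

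**Figure D4:**
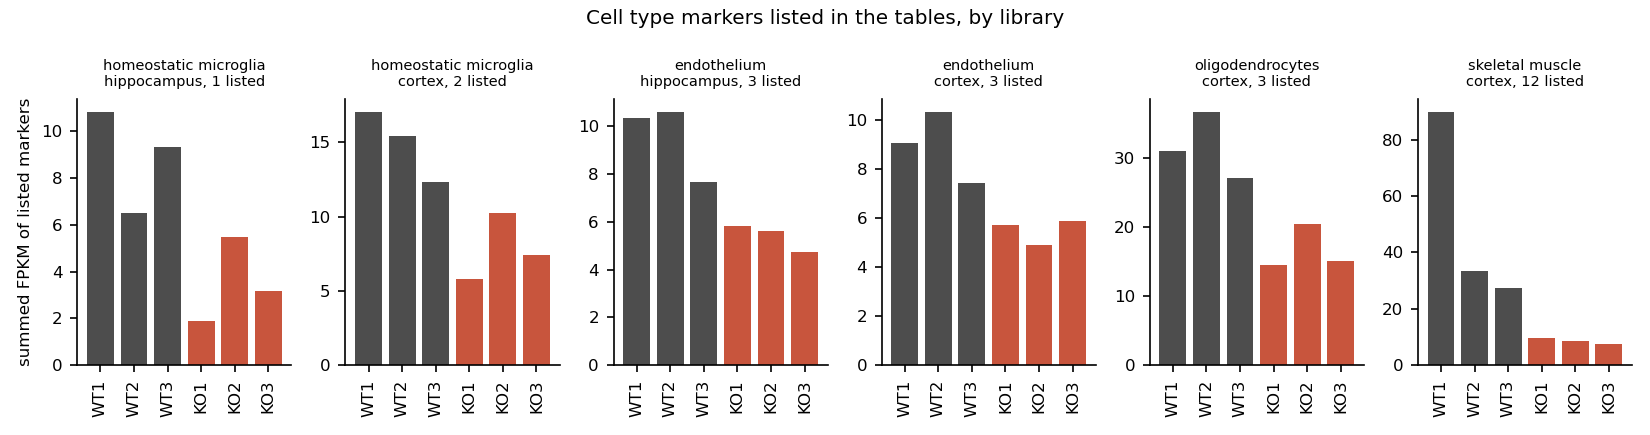
Summed FPKM (vertical axes starting at 0) of the listed markers of each cell type in each library, WT in grey and BK KO in red. Each panel gives the tissue and the number of listed markers; WT cortex library 1 stands out for skeletal muscle at 89.97 FPKM.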

How the data were processed

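The authors sequenced poly-A RNA as paired ends, and the labels' processing notes name mm9, DESeq 1.10.1 and DESeq2; the aligner is not given in the sources used here, and the gene records carry later RefSeq entries. Each of the 2 deposited tables holds the genes past the authors' cutoffs on p-value and fold. The deposited value per library was taken as FPKM, a unit not named in the study, from its digits and from transcript length: the authors' base mean over FPKM rose with length (Spearman's rho across genes 0.60 in hippocampus and 0.63 in cortex). The deposited base means are normalized signal, counts over size factors. The deposited fold (ratio), log2 fold change, p-value and adjusted p-value are the authors' own comparison and were not used. All per-library columns were matched to samples by name. Replicate numbers come from the labels. Depth is unknown, so no counting interval is given.

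Here each tissue was fitted alone with limma 3.58.1 in R 4.3.3 (lmFit, eBayes, no trend, no block) on log2(FPKM + 1) over all its listed genes, with Benjamini-Hochberg adjustment over them, and the interaction over the 196 shared genes and 12 libraries. No pair of libraries held an equal value above 0 in any gene. Two-sided exact permutation tests of 3 against 3, whose smallest p is 0.1, gave 0.1 for each member whose groups did not overlap, 0.3 for Spp1 and 0.2 for H2-Aa. The script was tested on simulated data. Tables and figures were made in Python 3.11.15 (pandas 2.3.3, numpy 2.4.6, matplotlib 3.10.9; exact tests in scipy 1.17.1). Genes named are Kcnma1, the members and the listed genes that shared a list with a member. The lists numbered 28, and not every gene of the other lists that was past the threshold is named. Up to 3 of the listed genes most like each member past the threshold are named too. Slc2a5 was described, and class I genes outside the list were named, after values were seen. The genes of lists without a member were given values, and the promoter motifs were searched, also after values were seen. The members and lists were chosen with earlier results of these data known. Alternatives were other pseudocounts, a filter on mean FPKM, limma's trend, a replicate block, stricter thresholds, centring of libraries and leaving out each library.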

Additional observations from a re-analysis of the deposited data

How the results depend on the processing

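Of 193 log2 fold changes of single members under an alternative, 160 kept their side of the threshold and their direction, 22 were no longer past it, 11 came past it and 0 changed sign. In hippocampus the count of members past the threshold went from 3 to 6 with a pseudocount of 0.1, to 4 with centring (Ucp2 added) and to 1 with a log2 fold change beyond 1, and it was 2 to 3 with each library left out. In cortex it went from 4 to 6 with a pseudocount of 0.1 and to 0 with a log2 fold change beyond 1 (limma at an unadjusted p under 0.05; no other tool was run), and it was 2 to 4 with each library left out. Centring each library on the median of its listed genes with a mean of at least 1 FPKM left 2 members in cortex, Gpnmb and Ucp2. It moved the median log2 fold change of the cortex table from -0.33 to -0.06, that is Il33 to -0.39, Alpl to -0.43 and H2-Aa to -0.59, and the share of higher genes among those past the threshold from 35.3% to 82.5% (in hippocampus from 48.6% to 61.0%). The centring uses genes selected for a difference, of which 395 of 561 were lower in cortex, so it removes part of that difference by construction. Members with an interaction numbered 0, and 0 to 1 with each library left out. The log2 fold change of Ciita in cortex, -0.08, became 0.19 with centring.

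A beyond-1 threshold also moved the whole tables, from 278 to 35 and from 173 to 25 genes, and a pseudocount of 0.1 moved them to 548 and 408. Same-numbered libraries of the genotypes did not deviate together (correlations across genes 0.02, 0.08 and -0.07 in hippocampus, -0.24, 0.12 and -0.22 in cortex), so the numbers were not taken to pair them. With replicate number added to the fit of each tissue, 3 members in hippocampus and 4 in cortex were past the threshold. That fit does pair same-numbered WT and BK KO libraries. In the interaction fit the block instead joined same-numbered libraries of a genotype across tissues, and 0 members had an interaction. Across tissues same-numbered BK KO libraries deviated together (0.51, 0.66 and 0.55), and WT libraries did so for number 2 (0.49) and not for 1 and 3 (0.00 and 0.02). Which sequencing depth lies behind low values such as those of Nlrp10 is unknown.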
